A study of Mus musculus with 1 sample.

Results

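The genes described here encode the cell-to-cell junctions of epithelium, namely tight junctions, adherens junctions, desmosomes and gap junctions. They were a list of 45 named genes, found on the array as probe sets that the platform annotation assigns to exactly 1 of them. In all, 44 of the 45 were measured, among 18193 genes measured on the array. Dsg3, a desmoglein gene, was not analysed here. The sample was total RNA of 1 culture of mouse lung cancer cells, labelled KR Primary, from a cell line grown out of a KR tumor of the B6/J strain. KR is not spelled out in the labels. The cells grew in RPMI1640 medium with 10% fetal bovine serum and were harvested at 80 to 90% confluence. Whether the line is a single clone was not stated. There is 1 array of 1 group, so there is no replicate, no error between cultures, no test and no second condition.

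Epithelial cells are held together by a series of junctions along their sides. Tight junctions lie nearest the free surface, where claudins and occludin seal the gap between cells and some claudins form ion pores. In adherens junctions cadherins bind each other across the gap and catenins tie them to actin, whereas in desmosomes desmogleins and desmocollins are tied through plaque proteins to keratin filaments. Gap junctions are channels of connexins through which small molecules pass from cell to cell. In the lung, tight junctions help to make the airway and alveolar linings a barrier to water, ions and pathogens.

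A probe set gives 1 signal drawn from the brightness of several short probes for a transcript, in arbitrary units. Each signal was set against a background line of 16.8, the 95th percentile of 126 probe sets for smell and taste receptor and keratin-associated genes, and against an upper background limit of 60.6, the highest of them. A gene passed if at least 1 of its probe sets did. Because probe sets differ in brightness for the same amount of RNA, the signals of different genes do not order their RNA amounts. In bulk RNA, fewer cells with a transcript cannot be told apart from less of it in each cell.

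Markers of epithelium in general passed the upper limit, and markers of lung epithelium did not. All 7 general epithelial markers passed the upper limit, from 272 for the transcription factor gene Grhl2 to 7600.2 for the keratin gene Krt18. Grhl2, however, did so on 1 of 4 probe sets. All genes weighted to the same numbers of probe sets per gene passed that limit in 43.2%. Of 6 lung epithelial markers, none passed the upper limit and 2 passed the line, against 40.0% and 56.4% of all genes weighted likewise. The 2 were the surfactant genes Sftpb at 28.9 and Sftpc at 21.1 on the brighter of 2 probe sets. Nkx2-1, the lung epithelial transcription factor, gave 7.66. Markers of other cells passed the line in 2 of 8 endothelial, 1 of 8 fibroblast and 1 of 6 leukocyte genes. All genes weighted to the probe set numbers of these lists gave 56.2%, 68.9% and 58.0%. The lists ranged from 1.64 to 111, 3.95 to 19.3 and 3.34 to 47.1.

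Most tight junction, adherens junction and desmosome genes were above background, and most gap junction genes were not. Of the 44 measured genes, 35 (79.5%) passed the line, against 63.3% of all genes, and 28 (63.6%) passed the upper limit, against 47.5% of all genes. A gene with more probe sets has more chances to pass. Weighted to the same numbers of probe sets per gene, all genes gave 64.1% above the line and 48.1% above the limit. The median of the highest signal per gene was 7.94 on the log2 scale for junction genes and 5.59 for all genes.

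The 4 junction types were divided. Tight junction genes were above the line for 17 of the 20 measured and above the limit for 14. Adherens junction genes passed in 8 and 6 of 9, and desmosome genes in 8 and 7 of 9. In contrast, 2 of 6 gap junction genes passed the line and 1 passed the limit. All genes weighted to the probe set numbers of the tight junction genes gave 59.5% above the line and 43.2% above the limit. Weighted likewise, they gave 69.8% and 53.2% for adherens junction, 69.0% and 53.7% for desmosome and 63.2% and 48.2% for gap junction genes. The median log2 of the highest signal was 8.20 for tight junction, 8.09 for adherens junction, 8.24 for desmosome and 3.29 for gap junction genes. With 6 to 20 genes a type and 1 array, these counts describe the genes on the list, and no test between types was made.

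**Figure D1:**
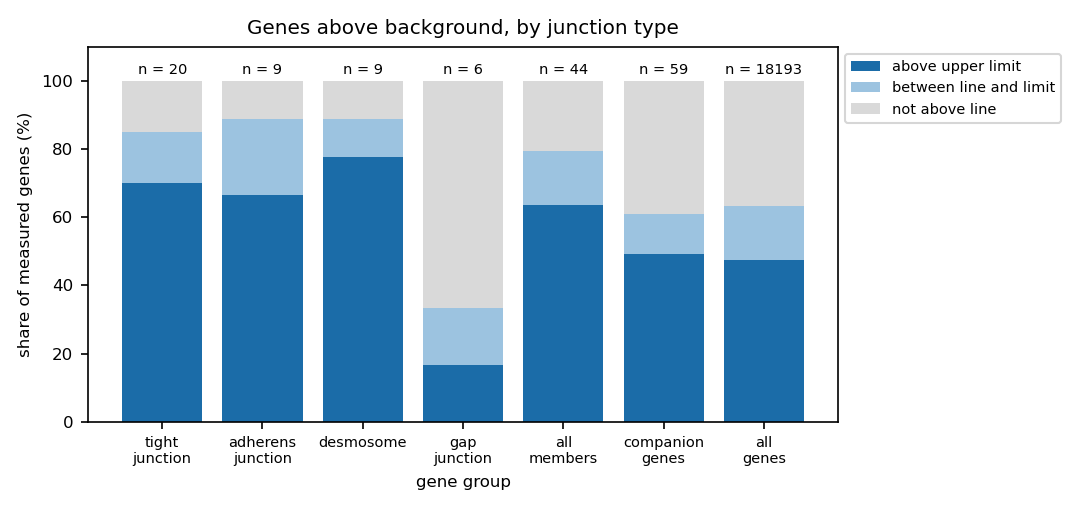
Share of measured genes (vertical axis, percent) above the upper background limit, between the line and the limit, and not above the line, for each junction type, all junction genes (all members), the companion genes of the same junctions and all genes; n is the number of measured genes. Gap junction genes had 16.7% above the limit, while the other types had 66.7% to 77.8%.

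**Figure D2:**
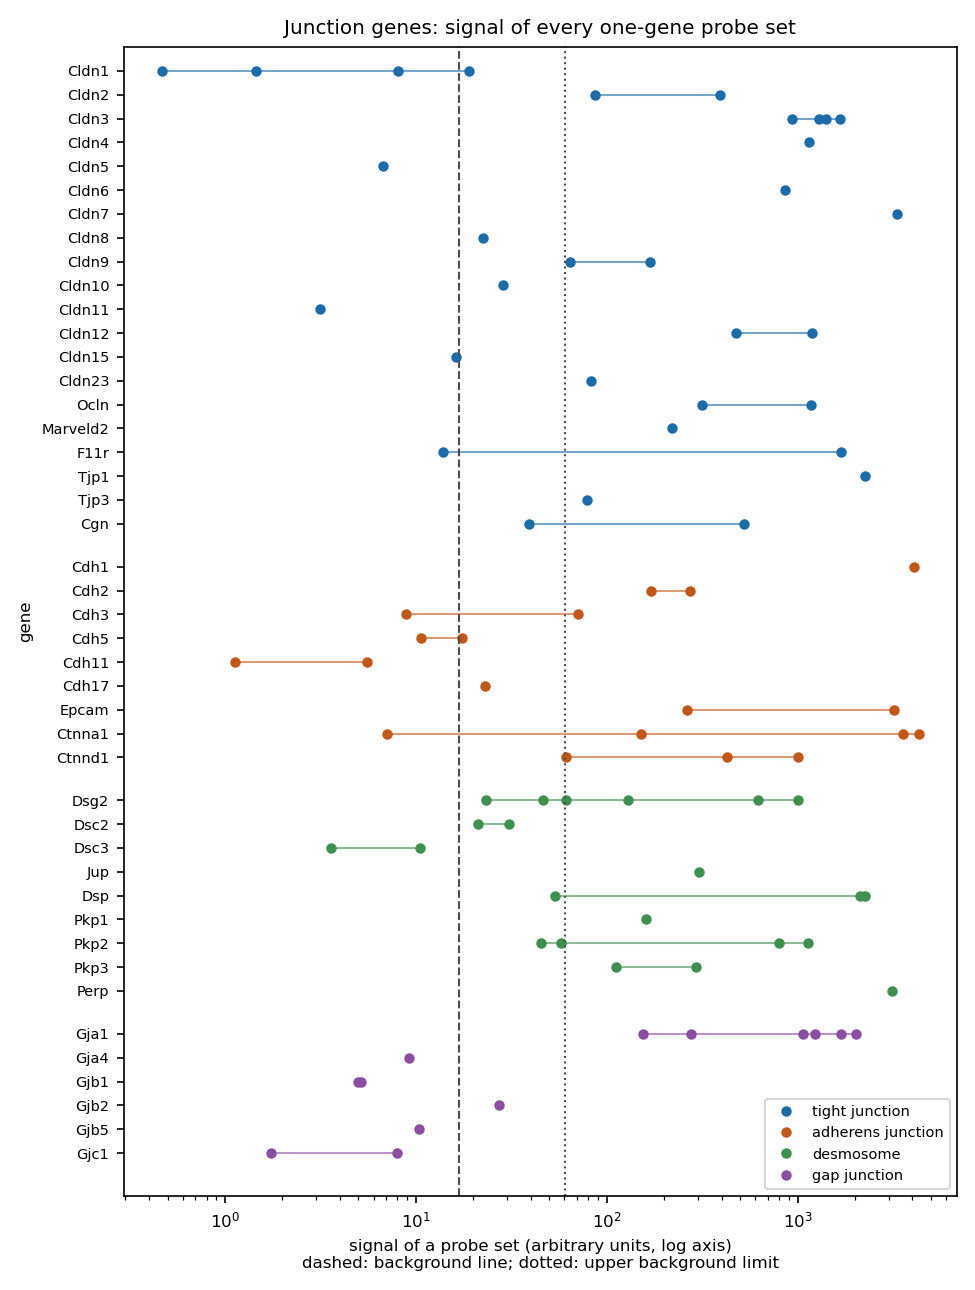
Signals of all 86 one-gene probe sets of the 44 junction genes (horizontal axis, arbitrary units, log scale), 1 row a gene, joined by a line from the lowest to the highest; the dashed and dotted lines are the background line and the upper limit. Of the 86 probe sets, 66 (76.7%) lay above the line and 52 (60.5%) above the limit. All one-gene probe sets of the array gave 60.9% and 41.1%. Some genes such as F11r and Ctnna1 had probe sets on both sides.

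Among the claudins of the main list, which form the strands of the tight junction, 11 of 14 passed the line and 8 the upper limit. All genes weighted to the same numbers of probe sets gave 59.1% and 43.0%. With the companion claudins described below added, 12 of 20 passed the line and 9 of 20 the limit. Weighted likewise, all genes gave 57.1% and 41.0%, so the measured claudin family as a whole passed about as often as all genes. Cldn7, a claudin that binds the adhesion molecule EpCAM, gave 3331 on its only probe set. Cldn3 and Cldn4, barrier claudins that serve as receptors for Clostridium perfringens enterotoxin, gave 941, 1297, 1409 and 1665 on the 4 probe sets of Cldn3 and 1150.2 on the 1 of Cldn4. Both genes were therefore far above background on every probe set. Cldn12 read 1195 and 479. Cldn6, a claudin of embryonic epithelium, gave 856 on its 1 probe set, and its relative Cldn9, known for its part in the ion barrier of the inner ear, gave 169 and 64.4. Cldn2, which forms a pore for cations and water, gave 391 and 86.4, and Cldn23 gave 83.0. All probe sets of these 8 genes lay above the upper limit.

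The other 6 claudins of the main list were dim. Cldn10, an ion-pore claudin of the kidney, at 28.7 and Cldn8, a claudin of kidney collecting duct, at 22.4 lay between the line and the limit, where a few background genes also lie. Cldn1, needed for the barrier of the skin, passed the line on 1 of 4 probe sets, with 18.9, 8.11, 1.45 and 0.466. Cldn15, a cation-pore claudin of the intestine, fell just short of the line at 16.3. Cldn5, the main claudin of blood vessel walls, gave 6.75, and Cldn11, a claudin of myelin and Sertoli cells, gave 3.13. Cldn1 and Cldn5 are also known in lung epithelium. Beside the low Cldn5 signal, 2 of the 8 endothelial markers passed the line, Egfl7 at 111 and Kdr at 30.3, and the defining markers Pecam1 at 14.3 and Vwf at 4.12 did not; the part of such cells in the Cldn5 and Cdh5 values was not tested.

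The other tight junction genes, 3 for membrane proteins and 3 for scaffolds, all passed the upper limit. All genes weighted to the same numbers of probe sets passed it in 47.4% and 40.0%. Of the membrane proteins, Ocln, encoding occludin, gave 1183 and 315, and Marveld2, encoding tricellulin of the points where 3 cells meet, gave 220.5. F11r, encoding the junctional adhesion molecule JAM-A, gave 1690.4 on one probe set and 13.9 on the other. Only the first of these is above background. Cytoplasmic scaffolds tie the strands to actin. Among them Tjp1, a zonula occludens protein gene, gave 2249, Cgn, encoding cingulin, gave 525 and 39.4, and Tjp3, a second zonula occludens gene, gave 78.8.

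Promoter sequence of Cldn4 and F11r, with passing signals, and of Cldn5, without, shows what lies before their starts. Each run is the 250 bases before the annotated start in the RefSeq table of GRCm38.p6, read 5′ to 3′ on the strand of the gene. They are chr5:134946935-134947184, minus strand for Cldn4, chr1:171437311-171437560, plus strand for F11r and chr16:18776597-18776846, plus strand for Cldn5. Capitals mark E-boxes of the form bound by Snail and ZEB repressors (CAGGTG or its reverse complement CACCTG) and AP-1 motifs (TGANTCA). Cldn4 had an E-box 14 bases and AP-1 motifs 240 and 158 bases before the start, F11r had an E-box 122 and an AP-1 motif 109 bases before it, and Cldn5 had neither motif.
Cldn4: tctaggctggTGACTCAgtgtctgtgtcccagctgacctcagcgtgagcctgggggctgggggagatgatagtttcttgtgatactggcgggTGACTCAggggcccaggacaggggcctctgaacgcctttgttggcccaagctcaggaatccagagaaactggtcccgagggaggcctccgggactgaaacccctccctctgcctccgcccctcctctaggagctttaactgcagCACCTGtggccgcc
F11r: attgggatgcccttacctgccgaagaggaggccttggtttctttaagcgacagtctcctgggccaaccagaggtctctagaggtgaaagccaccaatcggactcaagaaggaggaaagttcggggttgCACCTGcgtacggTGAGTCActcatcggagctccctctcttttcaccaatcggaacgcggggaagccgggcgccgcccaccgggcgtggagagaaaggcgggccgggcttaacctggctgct
Cldn5: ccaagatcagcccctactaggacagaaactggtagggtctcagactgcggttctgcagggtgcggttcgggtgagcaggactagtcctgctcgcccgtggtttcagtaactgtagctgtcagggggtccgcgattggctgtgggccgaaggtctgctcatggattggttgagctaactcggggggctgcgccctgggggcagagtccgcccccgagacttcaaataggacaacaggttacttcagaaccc

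Further genes of the same junctions were taken from companion lists. Of 59 measured, 36 (61.0%) passed the line and 29 (49.2%) exceeded the upper limit, set against 68.6% and 53.2% of all genes weighted to the same numbers of probe sets. Of the 26 in the tight junction, 20 (76.9%) passed the line and 17 (65.4%) the upper limit. All genes weighted to the probe set numbers of these 26 gave 70.7% and 55.8%. Cldn18, the claudin of lung alveoli and stomach, gave 1555 and 1367, and it was the only one of 6 companion claudins to pass the line. All genes weighted to the probe set numbers of these 6 gave 52.4% above the line and 36.3% above the limit. Genes that set the top and bottom of the cell passed the limit: Pard6b gave 806 and 761, the kinase gene Prkci 936 and 109.6, and Crb3 489.9, 315 and 288. Cxadr, the coxsackievirus and adenovirus receptor gene, passed the line on 4 of 5 probe sets and reached 1352. Jam3, an adhesion molecule gene, gave 13.1 and 5.72 and did not pass.

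In the adherens junction, the epithelial cadherin gene and the catenin genes Ctnna1, Ctnnd1 and Ctnnb1 passed the upper limit. The companion catenin genes Ctnna2, Ctnna3 and Ctnnd2 did not. Cdh1, encoding E-cadherin, gave 4069.5 on its only probe set. Ctnna1, encoding the alpha-catenin that links cadherins to actin, gave 4337, 3582, 150.5 and 7.08, the last below the line. Ctnnd1, encoding a catenin that holds cadherins at the membrane, gave 1003, 425 and 61.2. The companion gene Ctnnb1, encoding beta-catenin, gave 6101, 3490.4 and 1497. Epcam, an epithelial adhesion molecule gene often counted with this junction, gave 3219 and 265.

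Cadherins of other tissues gave mixed signals. Cdh2, encoding the N-cadherin of neural and mesenchymal cells, gave 272 and 170.4, both above the upper limit. Cdh3, encoding the P-cadherin of basal epithelium, passed the limit on 1 of 2 probe sets, with 70.5 and 8.91. Cdh17, the cadherin of liver and intestine, gave 23.1. Cdh5, the cadherin of blood vessel walls, gave 17.4 and 10.7, the brighter value just over the line, and Cdh11, a mesenchymal cadherin, gave 5.57 and 1.13. A mesenchymal cadherin thus passed in Cdh2 and not in Cdh11, while the 8 fibroblast markers were all at or under 19.3. Whether the Cdh2 signal comes from all cells or some was not tested.

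Epcam is shown by its promoter because it carries E-boxes and one of the clearest signals. The run is chr17:87635729-87635978, plus strand in GRCm38.p6, again the 250 bases before the start from RefSeq, with E-boxes in capitals 187 and 19 bases before the start.
Epcam: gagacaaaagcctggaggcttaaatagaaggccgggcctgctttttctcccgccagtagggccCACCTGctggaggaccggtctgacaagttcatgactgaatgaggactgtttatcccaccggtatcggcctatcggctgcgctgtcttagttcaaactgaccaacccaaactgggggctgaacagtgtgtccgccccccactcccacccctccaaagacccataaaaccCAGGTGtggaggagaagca

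In the companion list of adherens junction genes, 13 of 18 (72.2%) passed the line and 9 of 18 exceeded the upper limit, set against 75.2% and 59.7% of all genes weighted to the same numbers of probe sets. Vcl, encoding vinculin at the actin side, gave 2058 and 95.6, and Afdn, encoding the nectin partner afadin, gave 1000.2 and 5.62. Of the nectin adhesion genes, Nectin2 gave 588 and 360, Nectin4 119.7 and 107, and Nectin3 reached 639.9 on the highest of 6 probe sets, while Nectin1 stayed at or under 14.1. The kidney cadherin gene Cdh16 gave 1.70, and the alpha-catenins of neurons and heart, Ctnna2 and Ctnna3, read at most 17.9 and 5.71. Ctnnd2 and Arvcf reached 8.26 and 44.3, under the limit, while Pkp4 gave 758 and 386.

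Of the desmosome genes, all 5 for plaque proteins were above both thresholds, against 67.8% and 51.8% of all genes weighted to the same numbers of probe sets. Of the 3 measured desmosomal cadherins, 2 passed the line and 1 the limit, against 78.0% and 63.7% of all genes weighted likewise. With 5 and 3 genes, no test between these roles was made. Dsp, encoding desmoplakin that holds keratin filaments, gave 2264, 2116 and 53.5. Of the plakophilins, which link desmoplakin to the cadherins, Pkp2 gave 1140.5, 799, 57.6 and 45.4, Pkp3 gave 295 and 112, and Pkp1 gave 160.1. Jup, encoding plakoglobin, a catenin that also occurs in adherens junctions, gave 303. Perp, encoding a tetraspan membrane protein of desmosomes and a p53 target, gave 3114.

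Of the desmosomal cadherins, Dsg2, the desmoglein of simple epithelium, passed the line on all 6 probe sets and the upper limit on 4. Its signals were 1011, 619, 129, 61.4, 46.5 and 23.4. The desmocollins, with which desmogleins pair across the gap, stayed low. Dsc2, the desmocollin of simple epithelium, gave 30.6 and 21.2, between the line and the limit on both probe sets, and Dsc3, of basal stratified epithelium, gave 10.5 and 3.59. The companion gene Dsc1, of upper epidermis, gave 6.52 and 4.15. None of the 3 desmocollin genes passed the upper limit on any of their 6 probe sets, and 1 passed the line. All genes weighted to the probe set numbers of these 3 gave 54.8% above the limit and 72.4% above the line. At the limit of 19.2 that holds without keratin-associated genes, Dsc2 passed on both probe sets. All genes weighted to the probe set numbers of the companion list gave 53.2% above the line and 37.1% above the limit. In the companion list 2 of 5 measured genes (40.0%) passed both thresholds. These were the plakin genes Ppl and Evpl, which add to the plaque, at 644 and 181, while the epidermal desmogleins Dsg1a and Dsg1b gave 6.69 and 3.25.

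In the gap junction, 1 gene passed the upper limit and a second passed the line. Gja1, the most widely expressed connexin gene, gave 2019, 1692, 1228, 1071, 276 and 154 on 6 probe sets, and all 6 passed the upper limit. Gjb2, a connexin gene of many epithelia, read 27.4, which is over the line but under the limit, and has 1 probe set. The other 4 did not pass the line: Gjb5, a connexin of stratified epithelium, gave 10.4, and Gja4, of blood vessels, gave 9.18. Gjc1, of heart conduction tissue and smooth muscle, gave 7.98 and 1.74, and Gjb1, the main connexin gene of liver, gave 5.15 and 4.95. None of the 7 measured companion connexins passed the line either, the highest being Gjc3 at 12.7, so 2 of 13 connexin genes (15.4%) passed in all. All genes weighted to the same numbers of probe sets passed the line in 60.8%. Among the related pannexin channels, Panx1 gave 99.3, and Panx2 and Panx3 read at most 5.52 and 4.23.

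**Figure D3:**
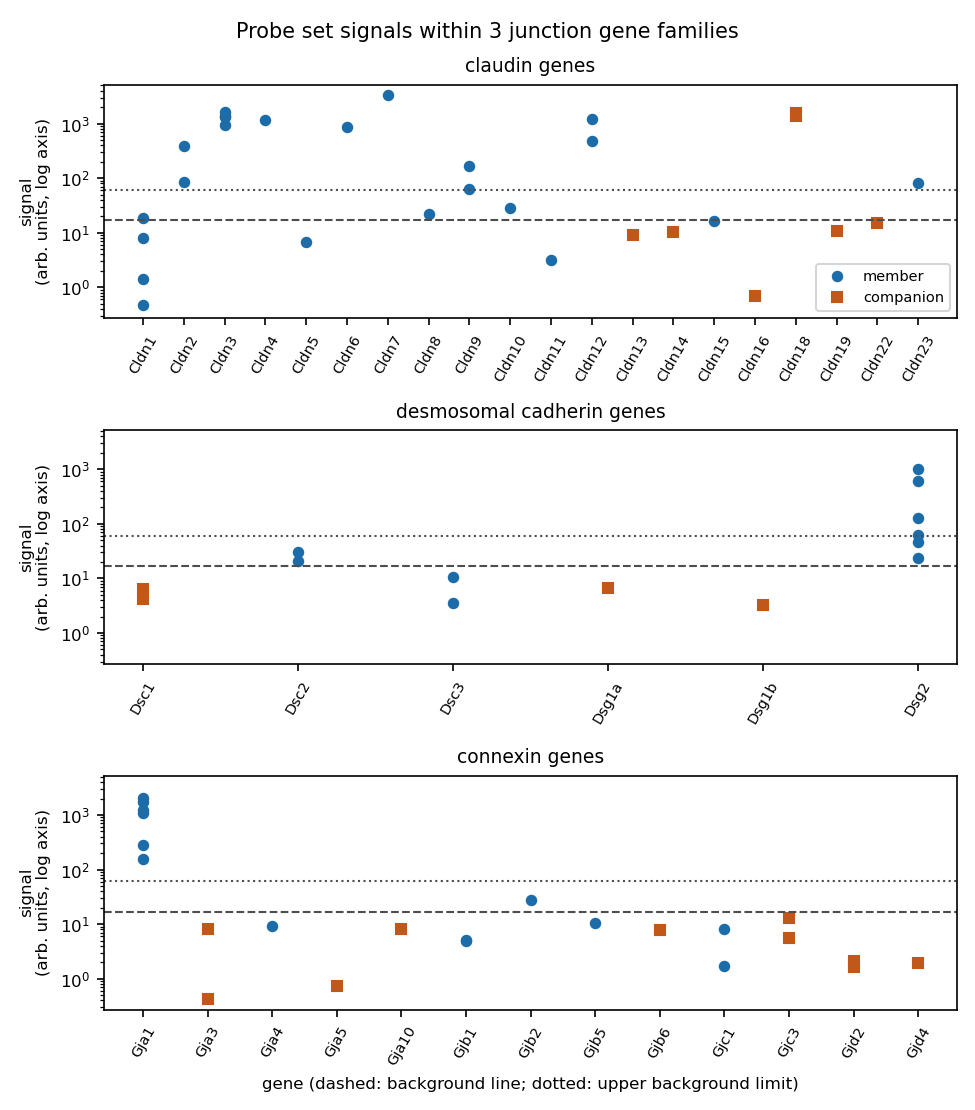
Signals of every probe set (vertical axis, arbitrary units, log scale) of the claudin, desmosomal cadherin and connexin genes on the array, with circles for genes of the main list (member) and squares for companion genes; dashed and dotted lines are the background line and the upper limit. Above the limit lay 9 of 20 claudin genes, 1 of 6 desmosomal cadherin genes (Dsg2) and 1 of 13 connexin genes (Gja1), beside 47.5% of all genes.

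The promoters of Gja1, which passed, and Gja4, which did not, are set side by side. They are chr10:56377050-56377299, plus strand and chr4:127314040-127314289, minus strand in GRCm38.p6, each the 250 bases before the start from RefSeq. The printed promoters are examples and show no rule: Tjp1 and Jup passed the upper limit with neither an E-box nor an AP-1 motif in their windows, and Gjb1 and Cldn15 did not pass the line although Gjb1 had an E-box and Cldn15 an AP-1 motif. Neither Gja1 nor Gja4 had an E-box, and Gja1 had an AP-1 motif 19 bases before the start, in capitals.
Gja1: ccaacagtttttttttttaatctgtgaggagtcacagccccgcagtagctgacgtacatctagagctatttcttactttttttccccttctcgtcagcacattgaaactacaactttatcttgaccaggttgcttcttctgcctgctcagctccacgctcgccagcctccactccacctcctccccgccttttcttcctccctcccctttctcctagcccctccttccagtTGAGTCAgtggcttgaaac
Gja4: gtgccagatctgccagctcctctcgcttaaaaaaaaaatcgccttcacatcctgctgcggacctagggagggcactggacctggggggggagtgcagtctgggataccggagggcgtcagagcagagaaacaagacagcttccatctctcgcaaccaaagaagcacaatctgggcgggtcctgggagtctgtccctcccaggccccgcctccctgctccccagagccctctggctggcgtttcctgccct

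Promoter windows of 300 bases, 250 before and 50 after a start, were at hand for 26 of the 45 genes, with 37 windows among them. E-boxes lay in at least 1 window of 10 of 17 genes above the upper limit and of 2 of 9 other junction genes, Gjb2 and Gjb1. That is 46.2% of the 26 genes, while 22.6% of all 27025 genes with a window and 20.2% of all windows had one. Among measured genes in general, E-boxes were in 20.5% of those above the upper limit and 25.3% of those not above it. In the 250 bases before the start alone, 7 of 17 and 2 of 9 junction genes had one, and 19.4% of all genes. Junction genes had 1.42 windows each and all genes 1.22.

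Of the other 4 motifs searched on both strands, GC boxes (GGGCGG or CCGCCC) were in 13 of 17 genes above the limit and 8 of 9 other junction genes, and in 38.2% of all genes and 35.7% of all windows. Among measured genes in general, GC boxes were in 72.5% of those above the upper limit and 42.5% of those not above it. AP-1 motifs were in 3 of 17 and 1 of 9, and in 8.97% of all genes and 7.81% of windows. Grainyhead-type motifs (AACCGG or CCGGTT) were in 4 of 17 and 0 of 9, and in 7.74% of all genes and 6.83% of windows. TATA motifs (TATAAA or TTTATA) were in 3 of 17 and 2 of 9, and in 15.7% of all genes and 13.6% of windows. Median GC content was 57.4% in junction genes above the limit, 58.3% in the other junction genes and 52.8% in all genes, while measured genes in general had 61.6% above the limit and 55.0% not above it. Each motif was searched by itself, so matches of different motifs may share bases. A match is a run of letters and not a site shown to be bound, and genes with a window are the ones the table holds, not a sample of the list.

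**Figure D4:**
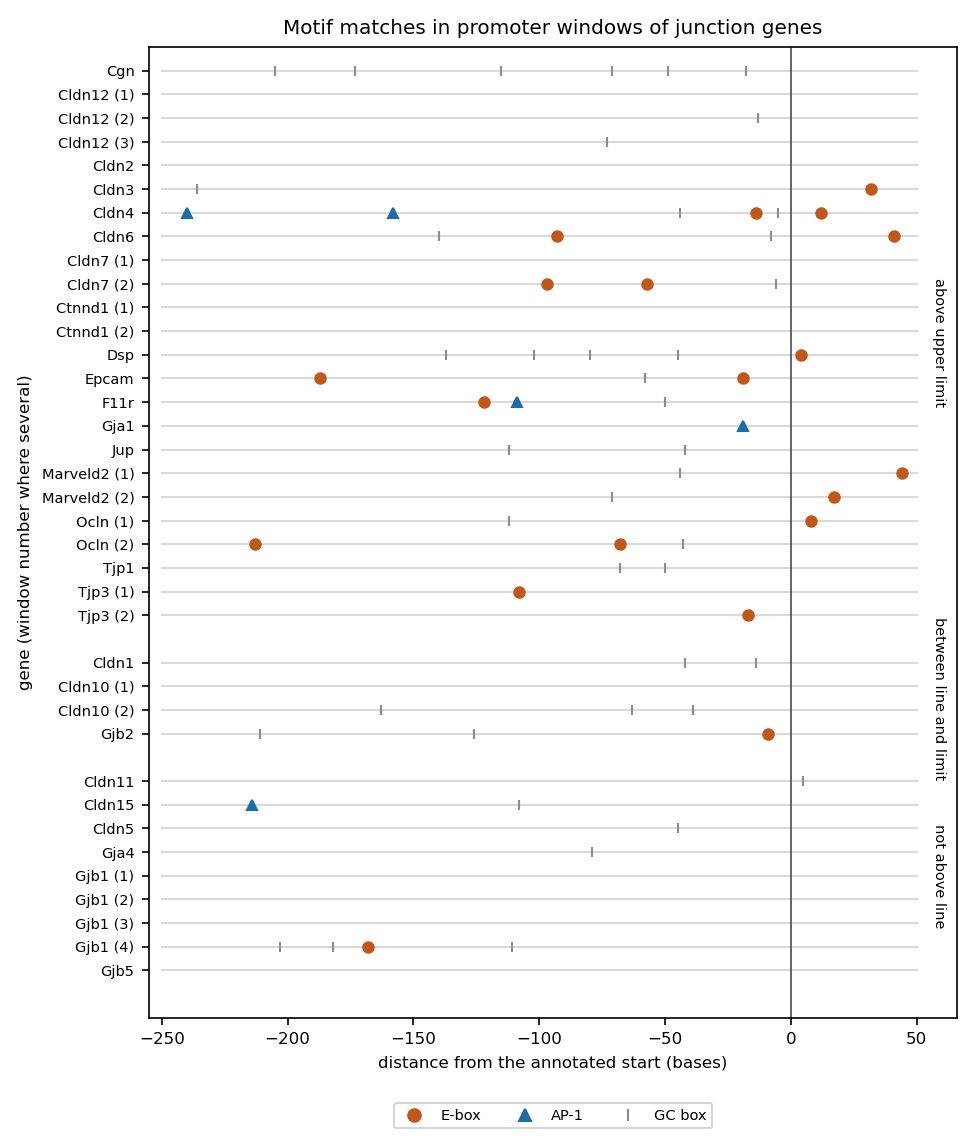
Matches to the E-box (circles), AP-1 (triangles) and GC box (bars) motifs by their distance in bases from the annotated start (horizontal axis), 1 row a promoter window of 26 junction genes, in 3 blocks by signal class. E-boxes appear in 10 of 17 genes of the top block and 2 of 9 genes of the lower blocks.

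Several junction genes are neighbours in the genome. Of 7 pairs of measured junction genes next to each other in the order of protein-coding genes in the RefSeq table of GRCm38.p6, 4 had both genes above the upper limit. That is 57.1%, against 30.6% of 14183 adjacent pairs of measured genes in general. Single junction genes also passed the limit more often than all genes, 63.6% against 47.5%, and the pair shares were not adjusted for this. The 4 pairs were Cldn3 with Cldn4, Cldn6 with Cldn9, Ocln with Marveld2 and Cdh1 with Cdh3. In 1 pair, Cdh2 with Dsc3, only Cdh2 passed the limit, and in 2 pairs, Dsc2 with Dsc3 and Cdh5 with Cdh11, neither did. The pairs are few and share family members, so no test was made.

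With 1 array, the disagreement between probe sets of a gene was the only spread that could be measured. For the 24 junction genes that had several probe sets, the SD over them on the log2 scale had a median of 1.55, against 1.45 over 9010 genes of the whole array. It ran from 0.0412 for Gjb1 to 4.89 for F11r. Probe sets disagreed on passing the line in 5 of the 24 genes (20.8%), against 32.9% of all genes, namely Cldn1, F11r, Cdh3, Cdh5 and Ctnna1. The other 20 junction genes rested on 1 probe set each, Cdh1, Cldn4, Cldn7, Tjp1, Jup and Perp among them.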

How the data were processed

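RNA of 1 mouse cell line was measured on 1 Affymetrix array. The authors deposited linear intensity values, 1 per probe set. The submitters' processing notes name Affymetrix Expression Console, and the algorithm was not given in the sources used here. Of 45101 probe sets, 34945 non-control ones named 1 gene, 932 several and 9160 none; only the first were used. Symbols were updated by gene ID with RefSeq (GRCm38.p6) for 34741 probe sets, which changed no junction gene's name, and 204 kept theirs. The background line was the 95th percentile of 44 olfactory, 36 vomeronasal, 3 taste receptor and 43 keratin-associated probe sets, and the upper limit the highest of them, Krtap12-1. Members, lists and motifs were chosen with earlier results of these data known. All members, and genes of the companion lists by membership, could be named. With 1 array there is no read depth and no replicate, and no test was made. Alternatives changed the line, the background set, the probe sets admitted, the rule per gene, the symbols and the junction assigned. Python 3.11.15, numpy 2.4.6, pandas 2.3.3 and matplotlib 3.10.9 were used.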

Additional observations from a re-analysis of the deposited data

How the results depend on the processing

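Under 8 other ways to set the line, the background set, the probe sets or the symbols, 25 to 36 junction genes passed the line. Under the settings that bear on it, 21 to 33 passed the upper limit. The share of all genes that passed ran from 42.4% to 66.7% for the line and from 27.3% to 60.8% for the limit. The upper limit of 60.6 is 1 probe set, of Krtap12-1. Without keratin-associated genes it was 19.2, and Cldn8, Cldn10, Cdh17, Dsc2 and Gjb2 then passed it, as did 60.8% of all genes. Of the 44 genes, 22 passed the line and 8 failed it in all 8. In addition, 13 changed side in at least 1, and Jup passed wherever it was measured. Only the lines at the 90th percentile (14.1) and without keratin-associated genes (15.1) were lower than 16.8. The other settings could not make a failing gene pass. Without the less specific probe sets (names ending in s_at or x_at), 42 genes remained measured and 33 passed, against 62.5% of all genes. The 13 were Cldn1, Cldn8, Cldn10, Cldn15, Cldn23, F11r, Tjp3, Cdh3, Cdh5, Cdh17, Ctnna1, Dsc2 and Gjb2. The gap junction count fell to 1 with the line at the 99th percentile or at the median plus 3 scaled median absolute deviations, where Gjb2 no longer passed. The adherens junction count fell to 5 with the latter line and also where every probe set of a gene had to pass. These stricter rules also lowered the share of all genes that passed, to 52.8%, 42.4% and 47.0%. With the second highest background probe set as the upper limit, an alternative chosen after seeing the data, 28 genes passed it. So did 51.4% of all genes. Moving Jup to the adherens junction genes, with Epcam left out there, gave 8 adherens and 7 desmosome genes above the line. What limits these results is 1 array with no detection calls: signals between 16.8 and 60.6 are also reached by background probe sets.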
